A study of Danio rerio with 8 samples.

Results

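Collagen fibrils are made from procollagen, whose propeptides are cut off for the molecules to assemble into fibrils. The C-terminal propeptide is removed by the astacin metalloproteinases of the bone morphogenetic protein 1 and tolloid family, here bmp1a, bmp1b and tll1, which also cut other matrix proteins and, for tolloids in the embryo, the BMP antagonist Chordin. Procollagen C-endopeptidase enhancers, here pcolcea, pcolceb and pcolce2b, have no protease activity and bind the propeptide so that the proteinase cuts it faster. The collagen triple helix repeat proteins, here cthrc1a and cthrc1b, are secreted proteins with a short collagen-like stretch, known in rodents from injured arteries and, in mouse, as cofactors of Wnt signalling in planar cell polarity.

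These 8 genes, of 32520 in the deposited table, were picked by name. The choice was made with a group comparison of these same data known, in which pcolceb and cthrc1b had been called lower, so the differences between the groups are given as a description of these libraries and support nothing further. Each name matched a single row, and all 8 genes were among the 15559 that passed the filter on low counts.

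RNA-seq was carried out on GFP-positive cells sorted at 96 hours post fertilization (hpf) from larvae of the Tg(fli1:EGFP)y1 line, all labelled wild type in genotype. One group, called LOF-labelled here, received at the one-cell stage a morpholino (an antisense oligomer that blocks its RNA target) against exon-intron junction 10 of hpse2, the gene of heparanase 2 (Hpa2). The control group received an equimolar standard control morpholino. Each group had 4 libraries, 2 from each of 2 biological replicates, numbered 1_1, 1_2, 2_1 and 2_2. Each sort drew on a pool of 60 to 80 larvae, and the fli1a sequence that drives GFP is active in endothelium and also in cranial neural crest derivatives. The comparison asks how loss of Hpa2 changes expression in the sorted cells, which the labels call endothelium.

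Library totals were 7504508 to 9475118 counts in the LOF-labelled group and 5048839 to 11344918 counts in the control group. Levels below are CPM, counts scaled to a common TMM-adjusted library total, and log2 fold changes are LOF-labelled minus control. The 2 libraries of a biological replicate were alike (within-replicate correlation of 0.504 in a random-effect fit), and the labels do not say whether they came from separate pools, so standard errors (SE) and p-values over 4 against 4 libraries can be too small and may in part measure technical spread. The target, hpse2, had 47.3 to 83.1 CPM in the LOF-labelled libraries and 20.5 to 33.0 CPM in the controls, so the count of this gene is no check on the loss of function, which a morpholino at a splice junction can bring about without lowering it. A pair of library sets, which the labels do not give, was formed after the data were seen by crossing the biological replicate numbers. Deviations from the group means were negatively correlated between same-numbered libraries of the groups (-0.34 to -0.23). Set 1 holds LOF-labelled 2_1 and 2_2 with control 1_1 and 1_2, and set 2 holds LOF-labelled 1_1 and 1_2 with control 2_1 and 2_2.

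Summed over the marker lists used here, transcripts of fibroblasts and cartilage lay well above those of endothelium in the sorted cells. The 13 endothelial markers summed to 299 to 531 CPM in the LOF-labelled libraries and 267 to 510 CPM in the controls, led by the receptor genes flt4 and kdrl. The 9 fibroblast markers, led by col1a2 and dcn, summed to 17600 to 22100 CPM in the LOF-labelled libraries and 15792 to 18226 CPM in the controls. Most of this was col1a2 alone, with a mean of 16821 CPM in the LOF-labelled libraries and 14398 CPM in the controls. Such sums depend on the genes listed and do not give numbers of cells. The 9 cartilage markers, led over both groups together by col2a1a and matn1, summed to 12333 to 16857 CPM in the LOF-labelled libraries and 20252 to 24093 CPM in the controls. These ranges do not overlap, and 2.62% of single tested genes had all LOF-labelled values below all controls. All 8 tested markers of this list had log2 fold changes below 0, and 7 had an unadjusted p under 0.05 (518 lower genes of all 15559 tested did). The edgeR test called acana and matn1 lower, beside 0.0836% of all tested genes. DESeq2 called 4 of the list, beside 0.585% of the genes it tested, and snorc was at 0 counts. In bulk samples, fewer cells of a type and less RNA per cell cannot be told apart. The 4 tendon markers (tnmd and scxa the most abundant), the 9 mural markers (pdgfrb and myh11a) and the 8 bone markers (col10a1a and ifitm5, with bglap at 0) overlapped between the groups in their sums, as did the 5 epidermal markers (krt4 and cdh1, with krt5 and epcam at 0) and the 5 skeletal muscle markers (actc1b and ckma, with mylpfa at 0).

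Of the 8 genes, pcolceb and cthrc1b were lower in the LOF-labelled libraries in the edgeR quasi-likelihood test over all genes, and no other member was called. Among all 15559 genes tested, 0.0900% were called in either direction and 0.0836% were called lower. DESeq2 and limma-voom called the same pair of members, beside 0.585% and 0.109% of the genes each tested. All LOF-labelled values lay below all control values for pcolceb and cthrc1b, a pattern that 2.62% of the tested genes share. The groups of the other 6 members overlapped, with adjusted p of 0.653 to 0.947. Of these, 2 had an unadjusted edgeR p under 0.05, pcolce2b (lower, 0.0186) and bmp1a (higher, 0.0391), beside 6.29% of all genes tested. Over the 8 genes the median log2 fold change was -0.27, with 5 below 0 and 3 above, beside a median of 0.0017 over all genes tested.

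**Figure D1:**
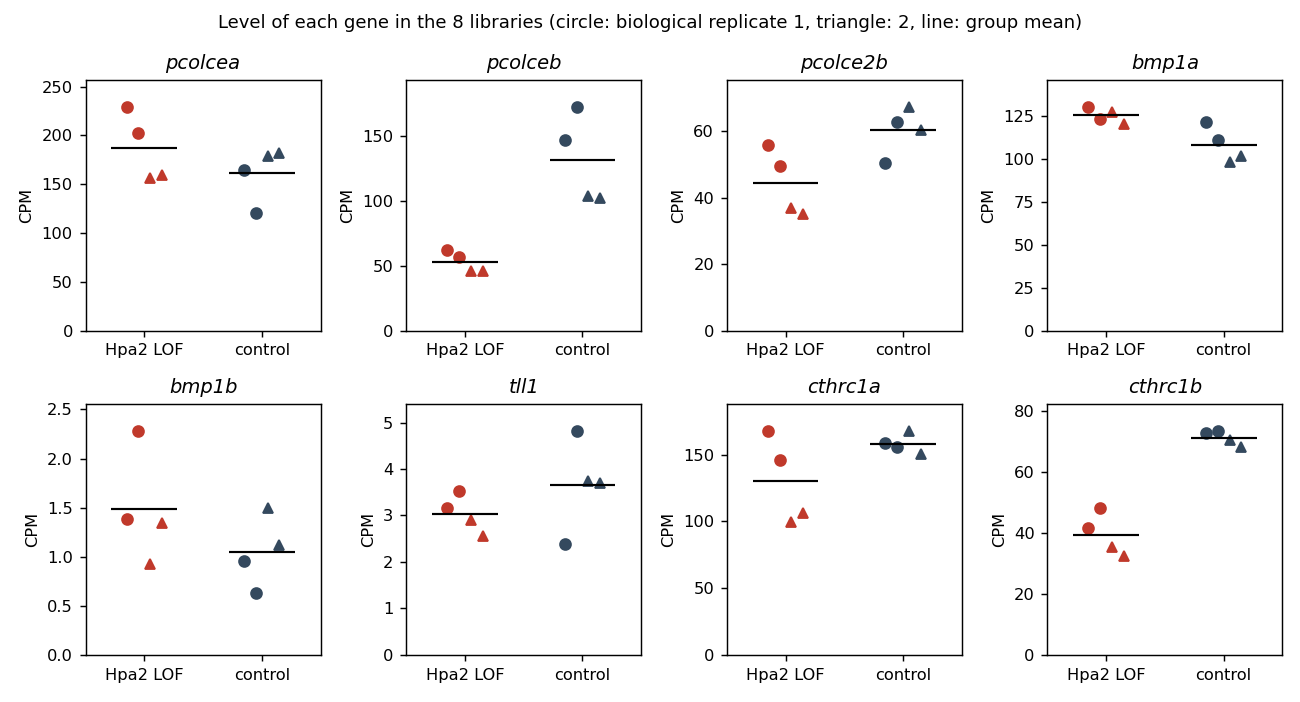
The level of each gene in CPM is plotted on the vertical axis for the 4 LOF-labelled libraries on the left and the 4 control libraries on the right of each panel, with circles for biological replicate 1, triangles for biological replicate 2 and lines for group means. The groups are separate for pcolceb and cthrc1b and overlap for the other 6 genes, and for bmp1b and tll1 the levels stay under 5 CPM.

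The enhancer pcolceb (ENSDARG00000052057, chromosome 7, 50849142 to 50873496, forward strand, GRCz11) had 62.3, 56.6, 45.99 and 46.02 CPM in LOF-labelled libraries 1_1, 1_2, 2_1 and 2_2, against 147, 173, 104 and 102 CPM in the controls of these numbers. The highest LOF-labelled library lay well under the lowest control, and the controls themselves split by biological replicate, with 1_1 and 1_2 above 2_1 and 2_2. The mean was 52.7 ± 8.10 CPM in the LOF-labelled libraries and 132 ± 34.5 CPM in the controls (SD, n = 4 each), a log2 fold change of -1.32 (SE 0.18) or a level 0.402 times that of the controls. The difference was -1.79 within set 1 and -0.79 within set 2, the same direction at sizes that differ by over 1.5 times. These sets were formed after the data were seen, and pcolceb did not follow them alike in the groups. Set 1 minus set 2 was -0.37 in the LOF-labelled group and 0.63 in the control group (log2 CPM). With the sets as a block edgeR gave -1.29 (SE 0.22, adjusted p = 0.0468). With the biological replicate numbers of the labels as a block it gave -1.30 (SE 0.10, adjusted p = 0.00374). The labels give no shared litter or day for a replicate number, and same-numbered libraries deviated in opposite directions, as given above. The smaller SE of this fit therefore does not rest on a known pairing. Counts behind these levels were 343 to 546 per LOF-labelled library and 825 to 1235 per control library. The edgeR call ended when any LOF-labelled library was left out (1_1, -1.41, 1_2, -1.35, 2_1, -1.25, and 2_2, -1.25) and when control 1_1 (-1.25) or 1_2 (-1.16) was left out. In these fits adjusted p lay between 0.0554 and 0.184. The call also ended with the library number as a block (-1.30, adjusted p = 0.207). Counts summed per biological replicate ended it too (-1.30, adjusted p = 0.99998). The summed level of the cartilage markers was also lower in every LOF-labelled library than in every control, and its part in the pcolceb difference was not tested.

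Its paralog pcolcea (ENSDARG00000056913, chromosome 10, 22789319 to 22803854, reverse strand) had the highest mean CPM of the enhancers in each group. By CPM, control 1_2 was the exception among the libraries, with pcolceb higher at 173 CPM. Per kilobase of counted gene length, pcolceb was also the higher in control 1_1 (56.6 against 55.4 CPM per kilobase for pcolcea). Levels of pcolcea were 230, 202, 156 and 159 CPM in LOF-labelled libraries 1_1, 1_2, 2_1 and 2_2, against 164, 120, 179 and 182 CPM in the controls of the same numbers. The ranges overlapped, and within the LOF-labelled group biological replicate 1 was above biological replicate 2. The log2 fold change was 0.21 (SE 0.16), with 0.17 within set 1 and 0.26 within set 2.

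The third enhancer, pcolce2b (ENSDARG00000055575, chromosome 24, 5871589 to 5910811, reverse strand), had 55.9, 49.5, 36.7 and 35.0 CPM in LOF-labelled libraries 1_1, 1_2, 2_1 and 2_2, against 50.3, 62.6, 67.3 and 60.3 CPM in the controls. Only LOF-labelled 1_1 reached into the control range. The log2 fold change was -0.44 (SE 0.16), -0.64 within set 1 and -0.28 within set 2, and edgeR called the gene only with the library sets as a block (-0.45, adjusted p = 0.0143), an alternative chosen after the data were seen. The table annotates pcolceb and pcolcea with CUB and NTR domains, the parts that make up an enhancer, but gives pcolce2b a protein kinase domain. The interval of pcolce2b overlaps the kinase genes mastl, on the opposite strand with 1584 counts over the 8 libraries against 3422 for pcolce2b, and pimr64, on the same strand with 7 counts. The use of strand in counting is not given in the sources used here, so reads of pcolce2b and mastl cannot be told apart where their exons overlap.

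The fourth enhancer gene of the table, pcolce2a, which was not among the 8, had 13.3 to 19.6 CPM in the LOF-labelled libraries and 16.5 to 19.7 CPM in the controls. With it, the make-up of the enhancer pool can be described per length, as CPM per kilobase of counted gene length. Transcripts of pcolceb made up 18.7%, 19.1%, 20.1% and 20.1% of the pool in LOF-labelled libraries 1_1, 1_2, 2_1 and 2_2, against 41.6%, 48.9%, 30.4% and 30.5% in the controls of these numbers. The share was nearly constant among the LOF-labelled libraries (19.5 ± 0.688%, SD, n = 4) and varied among the controls (37.8 ± 9.08%, SD, n = 4). The share of pcolcea was 60.2 ± 0.487% in the LOF-labelled libraries and 41.0 ± 7.99% in the controls, and that of pcolce2b was 17.2 ± 0.748% in the LOF-labelled libraries and 18.5 ± 2.43% in the controls. The pool as a whole summed to 105 ± 19.8 CPM per kilobase in the LOF-labelled libraries and 133 ± 3.41 CPM per kilobase in the controls. Without pcolceb it summed to 84.3 ± 16.7 CPM per kilobase in the LOF-labelled libraries and 82.6 ± 10.3 CPM per kilobase in the controls. Fibrillar procollagen chains, the substrate, summed to 8849 ± 932 CPM per kilobase in the LOF-labelled libraries and 8664 ± 699 CPM per kilobase in the controls. By these per-length levels there were 85.8 ± 9.30 chain transcripts per enhancer transcript in the LOF-labelled libraries and 65.0 ± 4.87 in the controls. The pool counts pcolce2b, whose row has the kinase annotation and the overlap with mastl described above. The sums, shares and ratios of the pool carry that limit. These shares and ratios contain the pcolceb difference that led to the choice of the genes and are not separate evidence of it.

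**Figure D2:**
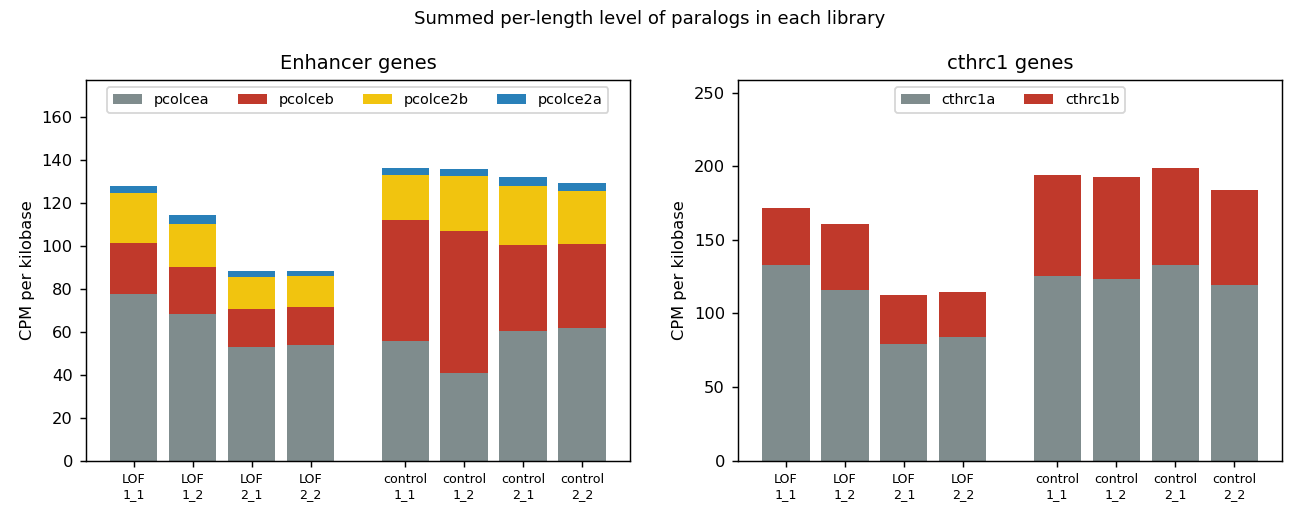
Stacked bars give the per-length level in CPM per kilobase of the 4 enhancer genes (left) and the 2 cthrc1 genes (right) in each library, LOF-labelled libraries on the left of each panel. The pcolceb segment takes 18.7% to 20.1% of the bar in LOF-labelled libraries and 30.4% to 48.9% in controls, and the cthrc1b segment takes 22.7% to 29.6% in LOF-labelled libraries and 33.3% to 35.8% in controls.

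Among the proteinases, bmp1a carried nearly all of the signal. This gene (ENSDARG00000028071, chromosome 8, 51165392 to 51293301, reverse strand), whose loss in zebrafish gives brittle bones and wavy fins, had 130, 123, 127 and 120.3 CPM in LOF-labelled libraries 1_1, 1_2, 2_1 and 2_2, against 121.3, 111, 97.8 and 102 CPM in the controls. The lowest LOF-labelled library lay just under the highest control. The mean was 125 ± 4.33 CPM in the LOF-labelled libraries and 108 ± 10.5 CPM in the controls (SD, n = 4 each), a log2 fold change of 0.22 (SE 0.092), with 0.095 within set 1 and 0.35 within set 2. Per length, bmp1a made up 96.5% to 97.7% of the 3 proteinase genes in the LOF-labelled libraries and 95.9% to 97.9% in the controls. There were 261 ± 26.6 fibrillar chain transcripts per proteinase transcript in the LOF-labelled libraries and 296 ± 16.1 in the controls (SD, n = 4 each).

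The gene tll1 (ENSDARG00000037429, chromosome 1, 20733102 to 20826023, reverse strand), a tolloid that cuts Chordin in the zebrafish embryo, had 19 to 34 counts per LOF-labelled library and 20 to 43 per control library. Its level was 3.03 ± 0.411 CPM in the LOF-labelled libraries and 3.66 ± 0.996 CPM in the controls (SD, n = 4 each). The ratio of summed counts over total counts, LOF-labelled over control, was 0.873 (95% exact interval 0.662 to 1.15, counting error only), so no difference was detectable at this depth. The other bmp1 gene, bmp1b (ENSDARG00000028053, chromosome 10, 40848354 to 40939706, reverse strand), had 7 to 22 counts per LOF-labelled library and 3 to 13 per control library, a ratio of 1.41 (95% exact interval 0.898 to 2.22, counting error only). Its interval overlaps the opposite-strand gene trim69, which had 2095 counts over the 8 libraries against 86 for bmp1b, so some of these few reads may be shared.

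The collagen repeat gene cthrc1b (ENSDARG00000001971, chromosome 16, 47454586 to 47483142, reverse strand) had 41.6, 48.1, 35.4 and 32.6 CPM in LOF-labelled libraries 1_1, 1_2, 2_1 and 2_2, against 72.98, 73.5, 70.6 and 68.4 CPM in the controls. The 4 controls lay close together, and every LOF-labelled library lay below them. The mean was 39.4 ± 6.90 CPM in the LOF-labelled libraries and 71.4 ± 2.35 CPM in the controls (SD, n = 4 each), a log2 fold change of -0.85 (SE 0.12) or a level 0.554 times that of the controls. The difference was -1.10 within set 1 and -0.63 within set 2. Counts were 243 to 464 per LOF-labelled library and 351 to 797 per control library. The edgeR call ended when LOF-labelled 1_1 (-0.88), 2_1 (-0.80) or 2_2 (-0.76) was left out and when any control was (1_1, -0.84, 1_2, -0.84, 2_1, -0.86, and 2_2, -0.88). In these fits adjusted p lay between 0.0849 and 0.192. It also ended with unscaled library totals (-0.83, adjusted p = 0.0548) and with biological replicate as a random effect (-0.85, limma adjusted p = 0.0871). The library number as a block (-0.87, adjusted p = 0.345) and counts summed per biological replicate (-0.85, adjusted p = 0.99998) ended it too. As for pcolceb, the cartilage marker sum was lower in the same libraries, and its part was not tested.

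The paralog cthrc1a (ENSDARG00000087198, chromosome 19, 12915498 to 12927089, forward strand) had 168, 146, 99.8 and 106 CPM in LOF-labelled libraries 1_1, 1_2, 2_1 and 2_2, against 158, 156, 168 and 151 CPM in the controls. LOF-labelled biological replicate 2 stood below the controls, while LOF-labelled 1_1 lay at the upper end of their range. The log2 fold change was -0.28 (SE 0.15), -0.61 within set 1 and -0.023 within set 2. Per length, cthrc1b made up 22.7%, 28.1%, 29.6% and 26.7% of the cthrc1 pair in LOF-labelled libraries 1_1, 1_2, 2_1 and 2_2, against 35.3%, 35.8%, 33.3% and 35.0% in the controls. The table annotates cthrc1a with a collagen triple helix repeat and gives no domain for cthrc1b.

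**Figure D3:**
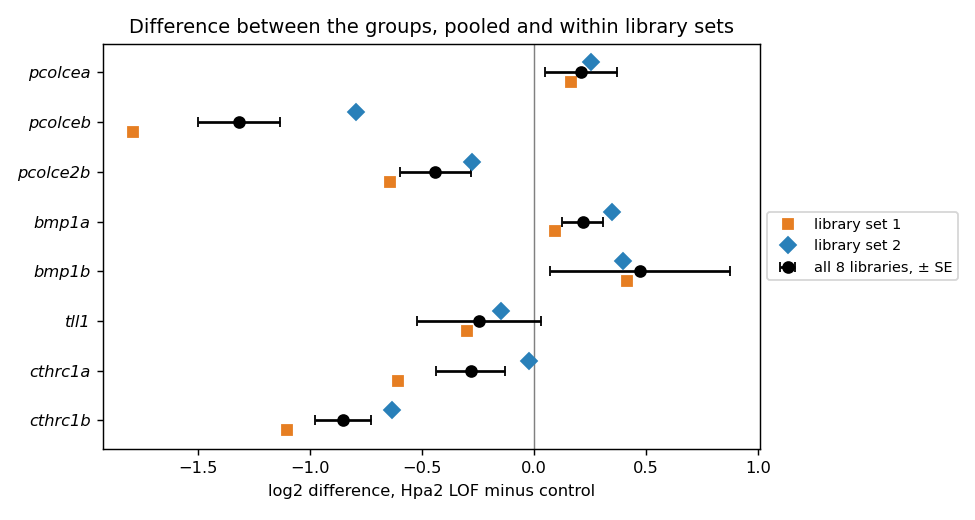
The log2 difference of LOF-labelled minus control libraries is plotted for each of the 8 genes, with black points for all 8 libraries (bars, ± SE), squares for library set 1 and diamonds for library set 2. The direction is the same in both sets for all 8 genes, though cthrc1a is near 0 in set 2 (-0.023). Set 1 gives the lower value for every gene but bmp1b, with pcolceb at -1.79, cthrc1b at -1.10, pcolce2b at -0.64 and cthrc1a at -0.61.

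The order of the 8 genes by level was not used to choose them. The levels of pcolceb and cthrc1b do contain the group differences known at the choice. Per length, cthrc1a was the most abundant at 114 ± 21.0 CPM per kilobase (SD over 8 libraries), above 96.6% of the tested genes, followed by pcolcea at 58.7 ± 11.1, cthrc1b at 52.0 ± 16.6, pcolceb at 35.5 ± 18.5, bmp1a at 30.7 ± 3.13 and pcolce2b at 21.3 ± 4.80 CPM per kilobase. Far below came tll1 at 0.722 ± 0.169 and bmp1b at 0.237 ± 0.0934 CPM per kilobase, above 6.27% and 0.611% of the tested genes. The 7 pairs of neighbours in this order were compared within libraries by an exact two-sided sign-flip permutation test over the 8 libraries. The pairs came from ranking these same libraries, so the mean direction of each was set before its test. Its p-value is therefore no separate support for the order. Libraries from 1 biological replicate also depend on each other, so these p-values are too small. Over the means of the 4 biological replicates the smallest p is 0.125, which no pair can pass. Directions and sizes are therefore a description. The pairs cthrc1a over pcolcea, cthrc1b over pcolceb, pcolce2b over tll1 and tll1 over bmp1b held in 8 of 8 libraries (permutation p = 0.00781, the smallest that 8 libraries can give, adjusted over 7 pairs 0.0137), with mean log2 differences of 0.96, 0.65, 4.88 and 1.67. The gene bmp1a exceeded pcolce2b in 7 of 8 libraries by 0.55 (permutation p = 0.0156, adjusted 0.0219). Each of these 5 pairs had the same direction in 4 of 4 biological replicates (exact permutation p = 0.125).

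In the other 2 pairs the direction turned between the groups, so a test pooled over all 8 libraries cannot show a difference within either group. The level of pcolcea exceeded that of cthrc1b in 4 of 4 LOF-labelled libraries and in 0 of 4 controls (mean log2 difference 0.22, permutation p = 0.344, adjusted 0.401). Likewise pcolceb lay above bmp1a in 0 of 4 LOF-labelled libraries and in 4 of 4 controls (mean log2 difference 0.045, permutation p = 0.875). In the controls alone cthrc1b therefore ranked above pcolcea, and in the LOF-labelled libraries alone bmp1a ranked above pcolceb. These turns contain the group differences of cthrc1b and pcolceb that led to the choice of the genes.

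**Figure D4:**
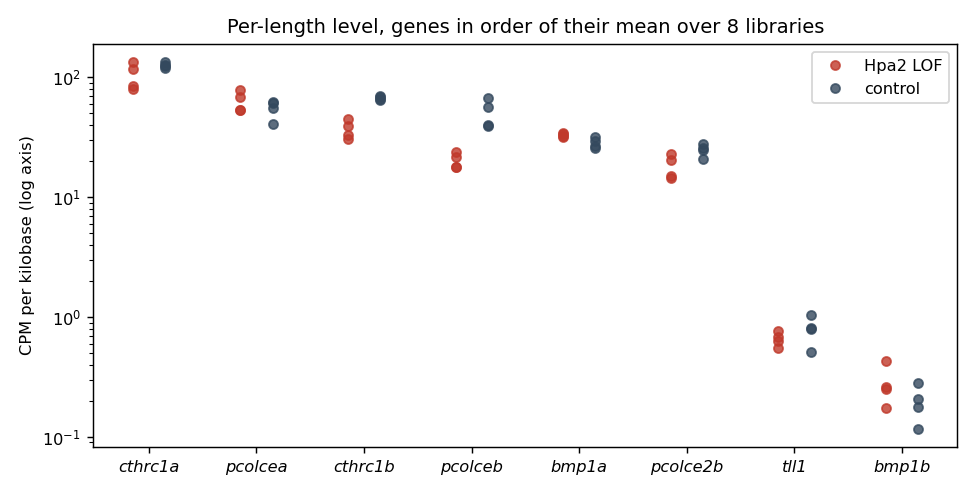
The per-length level in CPM per kilobase is plotted on a log axis for each gene in every library, LOF-labelled libraries left of controls, with genes ordered by their mean over 8 libraries. The genes tll1 and bmp1b lie at or under 1.04 CPM per kilobase, and the other 6 lie between 14.3 and 133.

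Genes with the most similar profile were sought among 10747 tested genes with a mean log2 CPM of at least 3, as the smallest root mean square difference of log2 CPM centred on each gene's mean over the 8 libraries. For pcolceb these were matn1, a cartilage matrix protein (0.12), foxa3, a forkhead transcription factor (0.13), the unnamed gene ENSDARG00000110756 (0.21), meltf, melanotransferrin (0.22), and col11a2, a chain of cartilage collagen XI (0.23). The level of matn1 was 2244 ± 538 CPM in the LOF-labelled libraries and 5304 ± 859 CPM in the controls, and that of foxa3 was 19.8 ± 2.49 CPM in the LOF-labelled libraries and 49.4 ± 10.7 CPM in the controls (SD, n = 4 each). For cthrc1b they were col15a1b, a collagen found near basement membranes (0.087), csgalnact1b, a chondroitin sulfate enzyme (0.098), eps8l2, an actin regulator (0.11), si_dkey-6n6.1, which the table likens to human ECM2 (0.11), and chad, the cartilage protein chondroadherin (0.12). The level of col15a1b was 147 ± 27.8 CPM in the LOF-labelled libraries and 249 ± 15.01 CPM in the controls (SD, n = 4 each). The lists for pcolceb and cthrc1b share no gene. The group difference is part of each profile, so this likeness is a description only.

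The substrates had values on either side of 0. Of 15 fibrillar procollagen genes tested, none was called by edgeR, beside 0.0900% of all genes tested. DESeq2 called 3 and limma-voom 1, beside 0.585% and 0.109% of the genes each tested. An unadjusted p under 0.05 belonged to 4 lower and 0 higher genes (6.29% of all genes tested had one, in either direction). The 4, named here after their values were seen, were col11a2 (-0.92, SE 0.15), col11a1a (-0.79, SE 0.15), col2a1a (-0.44, SE 0.12) and col2a1b (-0.29, SE 0.13), which encode chains of collagens II and XI, known from cartilage. Another collagen XI gene, col11a1b, lay above 0 (0.17, SE 0.10), with a mean of 1971 CPM in the LOF-labelled libraries and 1757 CPM in the controls. The DESeq2 calls were col11a2, col11a1a and col2a1a. With col11a1b, 11 genes had values above 0, among them the type I collagen genes col1a2 (0.22, SE 0.13), col1a1b (0.25, SE 0.12) and col1a1a (0.10, SE 0.14). Over the list the median log2 fold change was 0.17. Its most abundant member, col1a2, had 16821 ± 2001 CPM in the LOF-labelled libraries and 14398 ± 1142 CPM in the controls (SD, n = 4 each).

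Genes that fold and modify procollagen in the cell lay mostly below 0, and none was called. Of 22 tested, edgeR, DESeq2 and limma-voom called none, beside 0.0900%, 0.585% and 0.109% of the genes each tested. In this list 18 genes had values below 0, beside 7736 of all 15559 tested genes at or below 0, and the median was -0.20. An unadjusted p under 0.05 belonged to 4 lower and 0 higher genes, beside 518 lower and 460 higher genes of all tested. The smallest p belonged to the prolyl hydroxylase subunit p4ha1b (-0.44, SE 0.13), with 17.4 ± 2.10 CPM in the LOF-labelled libraries and 23.6 ± 2.18 CPM in the controls, and to the lysyl hydroxylase plod3 (-0.45, SE 0.15), with 111 ± 22.6 CPM in the LOF-labelled libraries and 152 ± 22.1 CPM in the controls (SD, n = 4 each). The 3 tested N-proteinases, which remove the other propeptide, had a median of 0.17, with adamts14 at 0.17 (SE 0.13) and adamts3 at -0.13 (SE 0.12), and none was called by edgeR, DESeq2 or limma-voom or had an unadjusted p under 0.05.

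Other substrates and regulators of the proteinases lay mostly above 0. Of 18 tested, 15 had values above 0, beside 7823 of all 15559 genes tested, and the median was 0.14. Neither edgeR, DESeq2 nor limma-voom called a gene, beside 0.0900%, 0.585% and 0.109% of the genes each tested. Of all tested genes 460 were higher with an unadjusted p under 0.05, and of this list 2 were. These were the fibronectin gene fn1b (0.38, SE 0.11), with 757 ± 65.3 CPM in the LOF-labelled libraries and 582 ± 71.04 CPM in the controls, and the lysyl oxidase gene loxa (0.30, SE 0.12), with 58.7 ± 6.21 CPM in the LOF-labelled libraries and 47.6 ± 5.73 CPM in the controls (SD, n = 4 each). Of 7 lysyl oxidases tested, which cross-link collagen and overlap with that list, edgeR and limma-voom called none. DESeq2 called loxl4 (edgeR value -0.65, SE 0.14), beside 0.585% of the genes it tested. Beside 518 lower and 460 higher genes of all tested, 2 lower and 2 higher lysyl oxidases had an unadjusted p under 0.05. The other lower gene was loxl3b (-0.36, SE 0.11), and the higher genes were loxl3a (0.49, SE 0.19) and loxa, given above.

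Genes linked to Cthrc1 in other systems had medians near 0. Of 18 tested Wnt and planar polarity genes, 11 had values above 0, with a median of 0.063, and those of smallest p were ror1, a Wnt co-receptor (0.22, SE 0.12), and the ligand wnt11 (0.22, SE 0.14). Of 15 tested TGF-beta genes, 8 had values above 0, with a median of 0.0090, and those of smallest p were the ligand tgfb2 (-0.30, SE 0.14) and the receptor tgfbr1b (0.18, SE 0.11). Of all 15559 genes tested, 7823 had values above 0. No gene of either list was called by edgeR, DESeq2 or limma-voom, beside 0.0900%, 0.585% and 0.109% of the genes each tested. In both lists tgfb2 alone had an unadjusted edgeR p under 0.05, beside 6.29% of all genes tested.

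**Figure D5:**
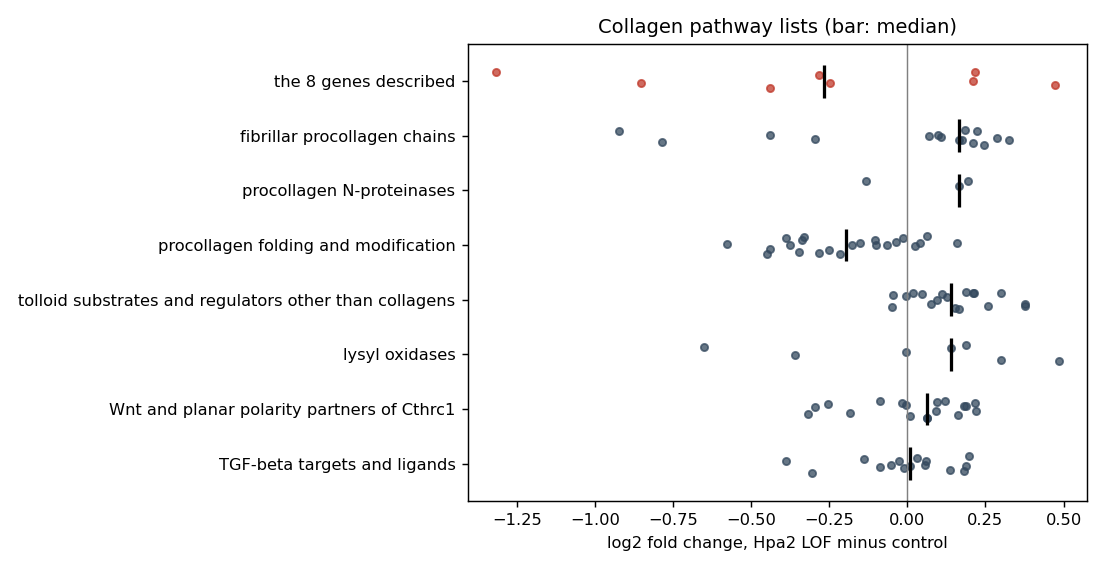
Each point is the log2 fold change, LOF-labelled minus control, of 1 gene, for the 8 genes described (top) and 7 lists of collagen pathway genes, with bars for medians. The medians are -0.27 for the 8 genes, 0.17 for fibrillar chains, -0.20 for folding and modification and 0.14 for other tolloid substrates and regulators.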

How the data were processed

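The authors deposited 1 table of unnormalized read counts for 32520 genes, with identifiers, names, coordinates, domains and a counted gene length. Per the submitters' processing notes, the build is GRCz11. For the aligner, the counter and the use of strand, nothing is given in the sources used here. Columns were assigned through the sample descriptions, with 0 left over. Genes were filtered with filterByExpr, which left 15559, scaled by TMM and tested by quasi-likelihood in edgeR 4.0.16 (R 4.3.3) with robust dispersions and Benjamini-Hochberg adjustment over all genes, called at an adjusted p under 0.05. SE is the fold change divided by the root of F. CPM are counts over the TMM-scaled library total, brought to a common total, and log2 CPM carry a prior count of 2. Alternatives used DESeq2 1.42.0 and limma 3.58.1. The genes and lists were chosen with earlier results of these data known. Named beside the 8 genes were called list members or the 2 of smallest p, the 2 most abundant markers and the 5 most similar profiles, and any other gene was named after its values were seen. No sequences were used here.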

Additional observations from a re-analysis of the deposited data

How the results depend on the processing

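The 8 genes kept the direction of their fold changes under every alternative run, except that bmp1b gave no value with at least 10 counts required in every library. The count of called genes, 14 (1 higher, 13 lower), was 32 with no low-count filter, 93 with DESeq2 (21 higher, 72 lower), 5 with biological replicate as a random effect and 0 with counts summed per biological replicate (299 genes at an unadjusted p under 0.05), and 0 to 20 when each library was left out in turn. Same-numbered libraries did not deviate together (correlations -0.34 to -0.23). With the library number as a replicate block edgeR called 0 genes (524 at an unadjusted p under 0.05), with pcolceb at -1.30 (adjusted p = 0.207) and cthrc1b at -0.87 (adjusted p = 0.345). With the biological replicate number of the labels as a block edgeR called 17 genes (0 higher, 17 lower). In that fit pcolceb was at -1.30 (adjusted p = 0.00374) and cthrc1b at -0.87 (adjusted p = 0.0187). Crossing the biological replicate numbers, chosen after the data were seen, gave 396 calls (175 higher, 221 lower), with pcolce2b called at -0.45. The call of pcolceb ended with the library number block (-1.30) and with summed counts (-1.30). Its fold change was -1.42 to -1.16 with each library left out in turn. The call of cthrc1b ended with unscaled totals (-0.83), the library number block (-0.87), the random effect (-0.85) and summed counts (-0.85). Its fold change was -0.97 to -0.76 with each library left out. In the level order, 5 neighbour pairs had an adjusted permutation p under 0.05 over 8 libraries, though ranking the same libraries had set their direction. Over 4 biological replicates no pair could reach this (p = 0.125, an exact test added after the data were seen). The cause was not tested for the other losses. With 3 to 43 counts per library, bmp1b and tll1 are limited by depth.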

Other observations

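The difference between the library sets, set 1 minus set 2 in log2 CPM, was not the same in the 2 groups for every gene. For pcolceb it was -0.37 in the LOF-labelled group and 0.63 in the control group, and for cthrc1b it was -0.39 in the LOF-labelled group and 0.076 in the control group, so the direction turned. The direction also turned for bmp1a, at -0.035 in the LOF-labelled group and 0.22 in the control group. For cthrc1a the set difference was -0.60 in the LOF-labelled group and -0.017 in the control group, the same sign. For tll1, at few counts, it was -0.27 in the LOF-labelled group and -0.12 in the control group, also the same sign. The values of pcolcea (-0.45 in the LOF-labelled group and -0.36 in the control group), pcolce2b (-0.55 in the LOF-labelled group and -0.18 in the control group) and bmp1b (-0.58 in the LOF-labelled group and -0.59 in the control group, at few counts) had the same sign in both. These differences were not tested.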
